A study of Mus musculus with 6 samples.

Results

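The Hox genes of the mouse lie in 4 clusters, Hoxa on chromosome 6, Hoxb on chromosome 11, Hoxc on chromosome 15 and Hoxd on chromosome 2. Members were taken by symbol from the GENCODE annotation of GRCm38: 39 of 21938 protein-coding genes matched Hoxa, Hoxb, Hoxc or Hoxd followed by a number, 11, 10, 9 and 9 per cluster. Chromatin accessibility was measured by single-cell ATAC-seq, in which a transposase cuts accessible DNA, in 6 libraries labelled as horizontal basal cells (HBCs), normally quiescent stem cells lying on the basal lamina of the olfactory epithelium. All mice carried Krt5CreER and Rosa26 LSL-YFP/LSL-YFP, so YFP marked cells in which the Krt5 promoter had driven Cre, together with their descendants. YFP-positive, propidium iodide-negative cells of the dorsal epithelium were sorted from 3 uninjured control samples and from 3 samples taken 24 h after intraperitoneal methimazole, a toxicant that destroys the epithelium above the basal cells. In both groups the mice of replicate 1 were 8 weeks old, those of replicate 2 were 6 weeks and those of replicate 3 were 6 to 7 weeks.

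Hox genes encode homeodomain transcription factors that give cells their position along the body axis, and the order of the genes within a cluster follows the order of their expression along that axis. The olfactory epithelium arises at the anterior end of the head, in front of the territory where Hox genes are switched on. In cells that do not use them, Hox clusters are a textbook target of the Polycomb repressive complexes, which modify histones H3 and H2A and keep the genes silent. Their promoters are often rich in CpG dinucleotides, a sequence class that is open in most cells at most genes. CTCF binds within the clusters and divides active from repressed stretches in tissues that use them.

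Both ends of each fragment were counted as cut sites, over barcodes with 2000 or more fragments. The uninjured libraries held 454, 889 and 629 such barcodes in the order of replicates 1 to 3, the injured ones 1338, 420 and 746, and cut sites per library ran from 14825320 to 44875242. Of 4420 distinct barcode sequences, 53 occurred in 2 or more libraries. Uninjured replicates 1 to 3 held 10, 10 and 39 of them and injured ones 7, 5 and 38, so most were in replicate 3. The cause of this sharing was not tested. In injured replicate 2, a single barcode held 1746401 of 11842193 fragments (14.7%) and 543 of the 2735 fragments centred in the Hox clusters (19.9%), and 14.5% of its cut sites lay in open tiles. In the other 5 libraries the largest barcode held 0.851% to 2.48% of fragments. Levels are given with all barcodes. The main comparisons are given again over barcodes with at least 20% of cut sites in open tiles, a filter that removed this barcode. Among HBC markers, the windows at Krt5 and Krt14 had 28.2 and 29.4 CPM (cut sites scaled to one library size, in counts per 1000000) on average, above the median of all promoters (8.42 CPM), while 3 of the 8, Krt15, Trp63 and Itga6, lay below it at 6.29, 0.894 and 0.327 CPM. Each window lies at the 5′-most annotated start, so a low level there does not describe other starts of the gene.

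The sequences just upstream of 4 Hox starts show the range of base composition within the clusters. They are the 250 bases before the 5′-most annotated start of Hoxa7 (highest accessibility of the 39), Hoxc13 (highest among the CpG-rich), Hoxa13 (highest GC content) and Hoxb3 (lowest accessibility), read 5′ to 3′ on the gene's strand from GRCm38, with CpG dinucleotides in capitals. The coordinates are chr6:52221855-52222104 (minus strand), chr15:102920853-102921102 (plus), chr6:52260881-52261130 (minus) and chr11:96323076-96323325 (plus).
Hoxa7: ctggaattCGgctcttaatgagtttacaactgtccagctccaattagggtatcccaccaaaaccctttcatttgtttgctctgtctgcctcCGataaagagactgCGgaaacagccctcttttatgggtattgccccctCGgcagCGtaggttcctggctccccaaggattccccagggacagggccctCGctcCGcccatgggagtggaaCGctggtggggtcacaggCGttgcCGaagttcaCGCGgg
Hoxc13: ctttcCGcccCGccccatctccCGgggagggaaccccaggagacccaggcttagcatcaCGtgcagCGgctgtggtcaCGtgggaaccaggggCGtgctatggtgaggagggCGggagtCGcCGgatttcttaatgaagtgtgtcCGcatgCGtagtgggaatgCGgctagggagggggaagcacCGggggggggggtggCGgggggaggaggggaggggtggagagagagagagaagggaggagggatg
Hoxa13: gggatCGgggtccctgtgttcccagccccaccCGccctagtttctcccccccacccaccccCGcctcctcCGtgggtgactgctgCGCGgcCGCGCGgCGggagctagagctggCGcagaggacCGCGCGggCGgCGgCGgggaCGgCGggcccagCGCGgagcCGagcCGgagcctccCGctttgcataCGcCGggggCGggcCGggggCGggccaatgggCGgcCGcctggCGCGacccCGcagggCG
Hoxb3: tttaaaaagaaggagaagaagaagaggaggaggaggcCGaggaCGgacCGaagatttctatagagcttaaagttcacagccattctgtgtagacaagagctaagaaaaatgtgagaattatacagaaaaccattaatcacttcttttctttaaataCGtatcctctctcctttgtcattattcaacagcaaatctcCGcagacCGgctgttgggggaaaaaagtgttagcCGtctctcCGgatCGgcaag
These stretches hold 12, 15, 35 and 9 CpG dinucleotides at a GC content of 56.4%, 66.8%, 80.0% and 42.0%. Among these 4, Hoxa7 had the highest level and Hoxa13, with the most CpG dinucleotides, a lower one. The 4 were chosen for extremes of level and GC content, so they cannot show how CpG number and level are related over the 39.

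Accessibility of the Hox promoters was low, and at most of them it was above that of tiles chosen as closed in these same libraries. Promoters were windows of 1 kb either side of the 5′-most start, all of equal length, and levels are CPM of cut sites scaled by trimmed mean of M-values (TMM) factors. The mean over the 6 libraries ran from 0.376 CPM (Hoxb3) to 5.65 CPM (Hoxa7), with a median of 1.53 CPM. The median over all 21938 promoters was 8.42 CPM, 5.51-fold above, and 39 of 39 Hox promoters lay below it. They stood between the 24.5th and the 45.3rd percentile of all promoters. Raw counts per window and library ran from 2 to 243 cut sites, so the lowest windows are known only roughly. Per kb, the median Hox promoter had 13, 8.84 and 11.2 times the density of closed tiles (those under 2 times the median tile) in uninjured libraries and 6.08, 5.40 and 10.7 times in injured ones. The lowest window of a library had 0.675 to 2.14 times that density, so the lowest promoters were near it, and 1 of 234 values, that of Hoxb8 in injured replicate 1 with 6 cut sites, was below. In a sum over sorted cells, a few cells with an open promoter and a small opening in all cells cannot be told apart.

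**Figure D1:**
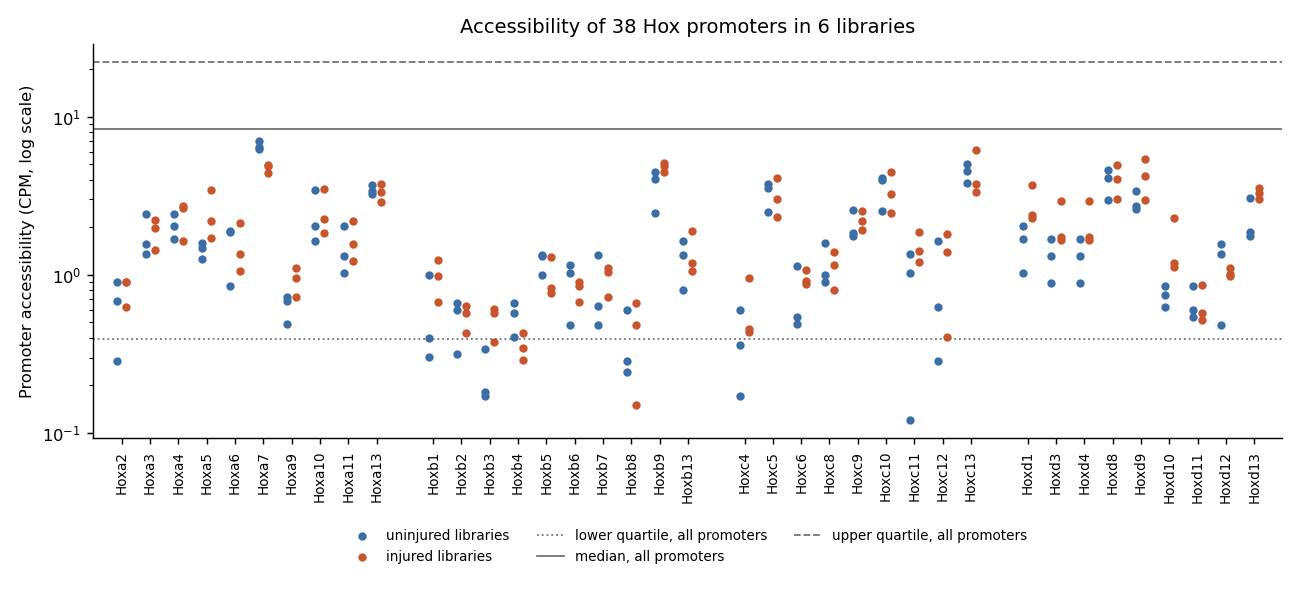
Accessibility of the Hox promoters, all but 1 of the 39, in each library (CPM, log scale), in order of cluster and gene number, with blue points for the 3 uninjured and orange points for the 3 injured libraries. The grey lines are the quartiles of the mean level over all promoters, and every Hox point lies below the median line at 8.42 CPM.

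Low accessibility was seen at CpG-rich Hox promoters as well. By a GC content of at least 50% and a CpG observed over expected ratio of at least 0.6 across the window, 19 of 39 Hox promoters were CpG-rich, against 6537 of all 21938 (29.8%). The 19 had a median of 1.95 CPM, and the 6518 other CpG-rich promoters had a median of 24.4 CPM, 12.5-fold higher. Of these 6518, 408 (6.26%) were at or below the level of the highest Hox promoter. The 20 Hox promoters that were not CpG-rich had a median of 0.964 CPM, against 1.63 CPM for the other promoters of that class. Within the 39, Spearman's rho between GC content and level was 0.71, and between CpG ratio and level 0.53. These are descriptions across genes that share their libraries.

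Levels differed between the clusters. The median promoter had 1.95 CPM in Hoxa, 1.70 in Hoxd, 1.16 in Hoxc and 0.806 in Hoxb. By gene number, which follows the axis from anterior to posterior, the 12 genes of groups 1 to 4 had a median of 1.23 CPM, the 11 of groups 5 to 8 a median of 1.14 and the 16 of groups 9 to 13 a median of 1.85. The ranges of the 3 classes overlapped.

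In Hoxa, the window at Hoxa7, a trunk-patterning gene, had 6.21, 6.44 and 6.98 CPM before injury, in replicates 1 to 3, and 4.90, 4.41 and 4.94 after it. Every injured library lay below every uninjured one. At the principal start of Hoxa7, 4349 bp further into the gene, the mean was 1.85 CPM. Hoxa13, a gene of the limb ends and urogenital tract, was nearly level over all 6 libraries, at 3.38, 3.70 and 3.25 before and 2.89, 3.74 and 3.32 after.

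In Hoxb, 1 promoter stood above the rest. Hoxb9, which patterns the thoracic skeleton, had 4.46, 2.45 and 4.05 CPM in uninjured and 4.47, 5.13 and 4.91 CPM in injured libraries, with uninjured replicate 2 the lowest of the 6. The next, Hoxb13, known from posterior tissues such as the prostate, had 1.33, 0.798 and 1.64 before and 1.18, 1.05 and 1.91 after. Hoxb5 had 1.33, 0.997 and 1.32 before and 0.829, 0.767 and 1.3 after. The lowest of the 39, Hoxb3, had 0.181, 0.342 and 0.172 CPM before and 0.377, 0.575 and 0.606 after, which rests on counts of 3 to 21 cut sites.

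In Hoxc, Hoxc13, a gene of hair and nail formation, had 3.8, 4.56 and 5.00 CPM before and 3.74, 3.35 and 6.18 after injury. Injured replicate 3 was the highest and injured replicate 2 the lowest. Hoxc10 had 3.98, 4.10 and 2.53 CPM before and 2.46, 4.50 and 3.23 after. The window of Hoxc5 shares most of its bases with that of Hoxc10, since its 5′-most start lies beside that of Hoxc10, and it had 3.56, 3.76 and 2.50 before and 2.34, 4.07 and 3.00 after. At the principal start of Hoxc5, 46372 bp away, the mean was 1.49 CPM.

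In Hoxd, whose posterior genes pattern limbs and digits, Hoxd8 had 2.96, 4.10 and 4.6 CPM before and 4.07, 4.98 and 3.03 after injury. Hoxd9 had 2.71, 2.62 and 3.39 before and 2.96, 5.41 and 4.22 after, with injured replicate 2 the highest. Hoxd13, the most posterior gene, had 1.75, 1.88 and 3.07 before and 3.32, 3.55 and 3.03 after. Its groups overlapped through uninjured replicate 3. Hoxd3 and Hoxd4 have 5′-most starts 2 bp apart and so the same values in every library. In all, 9 of 39 genes have a principal start over 1 kb from the 5′-most one. At principal starts the highest Hox level was 4.44 CPM, the median 1.49 CPM, and 39 of 39 lay below the median of all promoters.

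The comparison of injured with uninjured libraries asks whether this low accessibility differed 24 h after injury. No Hox promoter passed the test in either direction. With edgeR's quasi-likelihood test and Benjamini-Hochberg adjustment over 17375 promoters, 0 of 39 were called higher, where 2.18% of all were, and 0 were called lower, where 2.35% of all were. Over all promoters 4.53% were called in either direction, beside 0 of 39 Hox promoters. With the replicate number as a block, 0 of 39 were called and 11.9% of all promoters were. At an unadjusted p under 0.05 there were 4 of 39, against 23% of all promoters, and DESeq2 also called 0 in either direction. Among the 4503 other promoters with a mean level in the Hox range, 4.04% were called.

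Fitted log2 changes ran from -0.58 (Hoxb4, named after its values were seen) to 1.10 (Hoxb3), 27 above and 12 below 0. In Hoxd, 7 of 9 were above 0, and among the genes of groups 1 to 4, 11 of 12. Groups 5 to 8 had 5 above and 6 below 0, and Hoxc 5 and 4. Counting the shared Hoxd3 and Hoxd4 window once leaves 6 of 8 in Hoxd and 10 of 11 in groups 1 to 4, and over all promoters tested 47.7% were above 0. The median log2 change of the 39 Hox promoters was 0.16, beside -0.01 for all promoters tested and 0.33 for the promoters of like level. Every injured library lay above every uninjured one at 5 Hox promoters, where 12.4% of all promoters did so, and below at 1 (Hoxa7), where 16.2% did. The 5 were Hoxa5, Hoxb3, Hoxb9, Hoxd1 and Hoxd10, of which Hoxa5, Hoxd1 and Hoxd10 are named after their values were seen. Hoxd10 had 0.844, 0.627 and 0.747 CPM before and 1.18, 2.30 and 1.13 after, a log2 change of 1.04 with a standard error of 0.45 (edgeR adjusted p = 0.185). Hoxd1 had 1.03, 1.68 and 2.04 before and 3.72, 2.30 and 2.40 after (log2 change 0.80 with a standard error of 0.35, edgeR adjusted p = 0.184). Hoxa5 had 1.27, 1.48 and 1.58 before and 1.71, 2.20 and 3.47 after (log2 change 0.76, edgeR adjusted p = 0.217). The values of Hoxa7 gave a log2 change of -0.46 with a standard error of 0.20 (edgeR adjusted p = 0.189). Without barcodes under 20% of cut sites in open tiles, 0 of 39 had an unadjusted p under 0.05. The log2 changes of Hoxd10, Hoxd1, Hoxa5, Hoxd9 and Hoxa7 were then 0.88, 0.74, 0.68, 0.53 and -0.42, where that of Hoxd9 had been 0.51 over all barcodes.

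**Figure D2:**
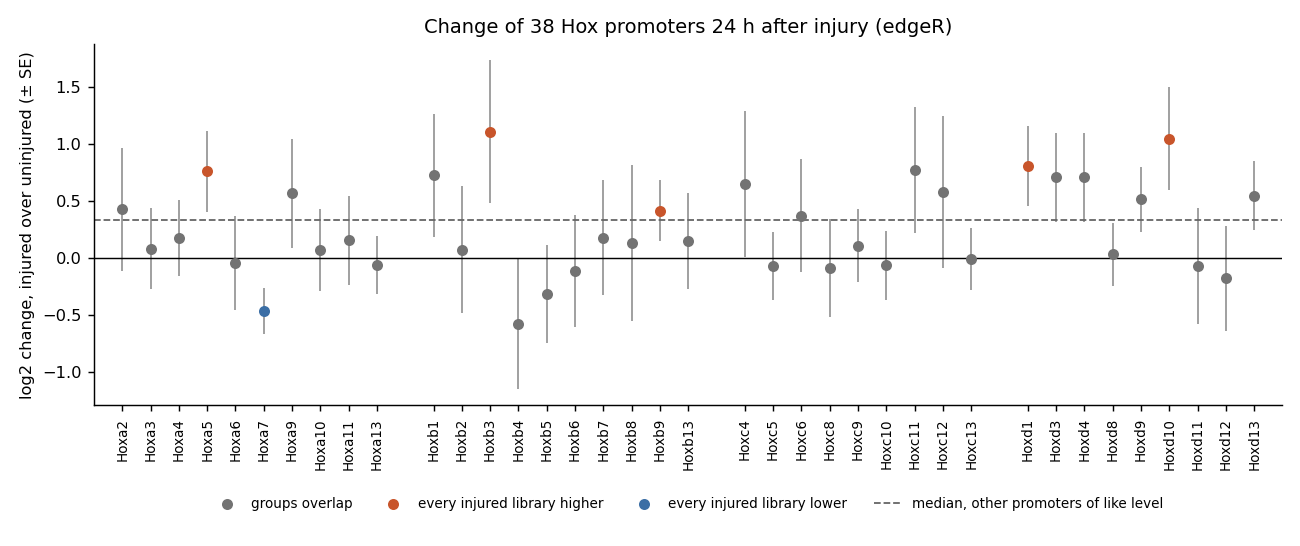
Log2 change of the Hox promoters, all but 1 of the 39, injured over uninjured, from edgeR, scaled by TMM factors from promoters. Bars are an approximate standard error, worked out from the log2 change and edgeR's F statistic. Orange points mark the 5 promoters at which every injured library was higher and blue the 1 at which every injured library was lower, grey points are promoters whose groups overlap, and the dashed line is the median of other promoters of like level (0.33).

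The sign of these changes depends on the scaling. TMM factors from promoters set the median promoter change to near 0. Scaling by total cut sites put it at -0.28, TMM factors from 10 kb bins at -0.54 and cut sites in closed tiles at -0.81. The Hox median moved with it, to -0.10, -0.34 and -0.59, and stayed 0.17, 0.18, 0.20 and 0.22 above the median of all promoters under the 4 scalings. Of the 39, 27, 17, 12 and 6 were above 0 under these 4 scalings. The distance ran from 0.12 (no count filter) to 0.38 (no deep barcodes) over all alternatives. It was 0.32 with 500 bp and 0.13 with 2 kb windows, 0.13 over barcodes with 20% of cut sites in open tiles, 0.35 without injured replicate 1, 0.28 without uninjured replicate 2 and 0.13 without injured replicate 3. Against promoters of like level the sign was the other way. With TMM factors from promoters their median was 0.33, above the Hox median of 0.16, and this comparison was not made under the alternatives. Under the last 3 scalings Hoxa7 alone among the 39 was called lower (log2 changes -0.72, -0.98 and -1.25, edgeR adjusted p = 0.0153, 0.00155 and 0.0195), where 38.5%, 58.2% and 51.9% of all promoters were called lower. Its principal start gave 0.17 (edgeR adjusted p = 0.809) with TMM factors from promoters.

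Across the clusters, accessibility was spread over many short stretches. The 4 clusters, from the first to the last base of their protein-coding Hox genes, cover 987 tiles of 500 bp. Of these, 264 (26.7%) were open, that is at 5 or more times the level of the median tile of the genome, against 10.8% of all covered tiles. The clusters are GC-rich, and the share of open tiles was closer to the genome's when that was held alike: in the range of 44.2% to 53.7% GC, 19.6% of 500 Hox tiles and 17.2% of other tiles were open. By cluster, 44.5% of tiles were open in Hoxa, 32.8% in Hoxd, 24.6% in Hoxc and 14% in Hoxb. Promoter windows touched 178 tiles, of which 100 were open. Another 164 open tiles lay among the 809 outside them (20.3%). The open tiles formed 115 runs, of which 53 were a single tile, and the longest, over Hoxb9, was 4000 bp (chr11:96269001-96273000).

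Of the tiles with the highest level, 4 are given. The highest, chr6:52221501-52222000 over an untranslated exon of Hoxa7, had 4.58, 4.82 and 4.68 CPM in uninjured and 3.37, 2.49 and 3.44 CPM in injured libraries. The groups did not overlap, and the log2 change was -0.59 with a standard error of 0.23 (edgeR adjusted p = 0.161). The next, chr6:52211501-52212000, lies in an intron of Hoxa3, 1115 bp from a Hoxa3 start, and had 1.87, 2.82 and 3.48 before and 3.04, 2.20 and 3.35 after. The tile over the coding exon of Hoxb9, chr11:96271501-96272000, had 2.53, 1.48 and 2.73 before and 2.96, 3.50 and 2.74 after. The tile at Hoxc10, chr15:102966501-102967000, had 2.59, 2.99 and 1.81 before and 1.63, 3.11 and 2.28 after. Adjusted p (edgeR) was 0.953, 0.503 and 0.943 for the last 3 tiles.

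Of the 987 Hox tiles, 193 had counts high enough to test, and 0 passed in either direction among 434603 tiles tested with edgeR. Over all tiles 6.03% were called higher and 0.85% lower. With the replicate number as a block, 0 Hox tiles were called, where 8.19% of all tiles were. Scaled by 10 kb bins, 2 of 152 Hox tiles tested were called lower, where 5.44% of all tiles were, and by closed tiles 1 of 188, where 2.05% were. At an unadjusted p under 0.05 there were 11 of 193 Hox tiles, against 19% of all, and DESeq2 called 0. The smallest adjusted p was 0.119, at a tile between genes in Hoxc (chr15:102943001-102943500, log2 change 1.41, named after its values were seen). Every injured library was higher at 20 of the 193 tested Hox tiles and lower at 6, where 18.3% and 6.88% of all tested tiles were so. Both counts are below those shares. The median log2 change was 0.18 over the Hox tiles and 0.16 over all tiles.

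Summed over whole clusters, accessibility per kb was highest in Hoxa in 5 of 6 libraries and lowest in Hoxb in 6 of 6. Hoxa had 0.528, 0.592 and 0.656 CPM per kb before injury and 0.632, 0.637 and 0.722 after. Hoxb had 0.292, 0.258 and 0.342 before and 0.292, 0.339 and 0.337 after. Hoxc had 0.354, 0.397 and 0.427 before and 0.427, 0.538 and 0.426 after. The groups of these 3 clusters overlapped. Taken by replicate number, the injured library was higher in 3 of 3 pairs for Hoxa. Hoxd had 0.399, 0.382 and 0.484 before and 0.557, 0.758 and 0.496 after, and here every injured library was above every uninjured one, injured replicate 2 by most.

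The ratio of the group means was 1.43 for Hoxd (log2 0.52, with TMM factors from promoters), and the exact two-sided permutation test gave p = 0.1, the smallest that 3 against 3 can give. For Hoxa, Hoxb and Hoxc the ratios were 1.12, 1.08 and 1.18 (exact permutation p = 0.3, 0.7 and 0.3), and for the 4 clusters together 1.19 (p = 0.2, permutation). Sign flips over the 3 pairs gave an exact permutation p of 0.25, the smallest they can give, for Hoxa, Hoxd and the 4 clusters together. Adjusted over the 7 single values compared, the permutation p for Hoxd was 0.42. Over barcodes with 20% of cut sites in open tiles, injured replicate 2 had 0.642 CPM per kb in Hoxd, the ratio was 1.31 and the groups still did not overlap. The ratios for Hoxa, Hoxb, Hoxc and the 4 clusters were 1.08, 1.03, 1.08 and 1.11 under that filter. Without injured replicate 2 the log2 change of Hoxd was 0.32. For Hoxd it was 0.24, -0.04 and -0.34 when scaled by total cut sites, by 10 kb bins and by closed tiles. The share of Hoxd among the cut sites of the 4 clusters, which no scaling touches, was compared after the data were seen: before injury it was 20.8%, 19.4% and 20.9%, and after it 24.4%, 28.0% and 20.7%. Injured replicate 3 lay among the uninjured values, so the groups overlapped, and they overlapped also over barcodes with 20% of cut sites in open tiles, where injured replicate 2 had 27.2%. The share of Hoxb was 27.3%, 23.6% and 26.5% before and 23.0%, 22.5% and 25.3% after, lower in each pair. Its groups overlapped, as did those of Hoxa and Hoxc.

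**Figure D3:**
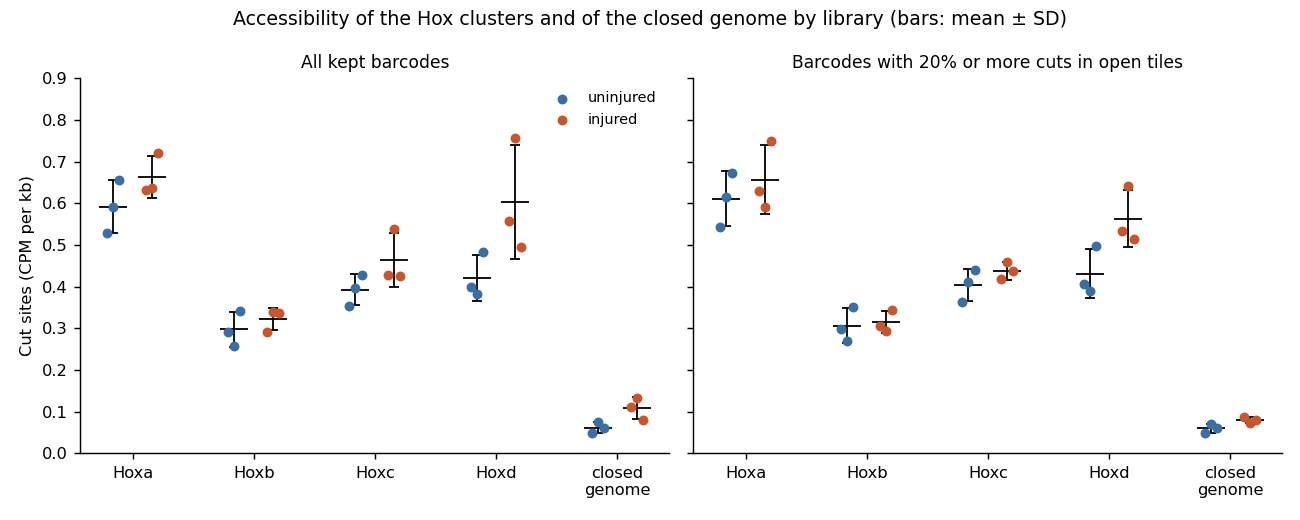
Cut sites per kb (CPM) in each Hox cluster and in closed tiles of the genome, by library, with blue points for uninjured, orange for injured and bars for the mean and SD of 3. The left panel holds all kept barcodes and the right panel barcodes with at least 20% of cut sites in open tiles. The injured value of 0.758 in Hoxd at the left is 0.642 at the right.

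The clusters stood several times above closed tiles of the same library. Those tiles were chosen for a low level in these same libraries, so a stretch not chosen that way would tend to stand above them. In the range of 44.2% to 53.7% GC, the median Hox tile had 0.132 CPM and the median other tile 0.0804 CPM. Tiles under 2 times the median tile had 0.0488, 0.0758 and 0.0601 CPM per kb in uninjured and 0.112, 0.133 and 0.0809 in injured libraries. The 4 clusters together had 0.378, 0.387 and 0.457 CPM per kb before and 0.449, 0.532 and 0.472 after. Their density was thus 7.76, 5.10 and 7.62 times that of closed tiles before injury and 4.02, 4.00 and 5.83 times after (log2 of the ratio of means -0.56, exact permutation p = 0.2). The groups overlapped through uninjured replicate 2. Taken by replicate number, the injured value was lower in each pair, and sign flips over the pairs gave an exact permutation p of 0.25, the smallest they can give. Over barcodes with 20% of cut sites in open tiles the multiples were 7.87, 5.68 and 7.63 before and 5.16, 6.29 and 6.05 after, a log2 of -0.28. Without barcodes over 3 times the median number of fragments the log2 was -0.20 (exact permutation p = 0.4), and without barcodes with fragments at immune markers -0.26. The density of closed tiles was higher after injury by 1.76-fold over all barcodes and by 1.33-fold, 1.38-fold and 1.34-fold under these 3 filters, and its part in the result was not tested further.

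Outside the clusters, the highest 10 kb bins were well above any bin inside. Within 200 kb of the clusters the highest bin had 3.45 CPM per kb beside Hoxa, 5.09 beside Hoxb, 3.57 beside Hoxc and 3.31 beside Hoxd, and inside them the highest had 1.03, 0.748, 0.722 and 0.971. The median bin was higher inside than outside in each library and cluster, in uninjured replicate 1 at 0.501 against 0.121 CPM per kb for Hoxa and 0.276 against 0.253 for Hoxc, where the gap was small. Of 11 protein-coding genes flanking the clusters, the mitochondrial ATP synthase gene Atp5g1 had the highest promoter level, 54.5, 48.9 and 49.5 CPM before and 49.7, 42.4 and 48.3 after, and Lnpk beside Hoxd had a mean of 28.9 CPM. Of 9 flanking genes tested, 0 were called (edgeR).

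**Figure D4:**
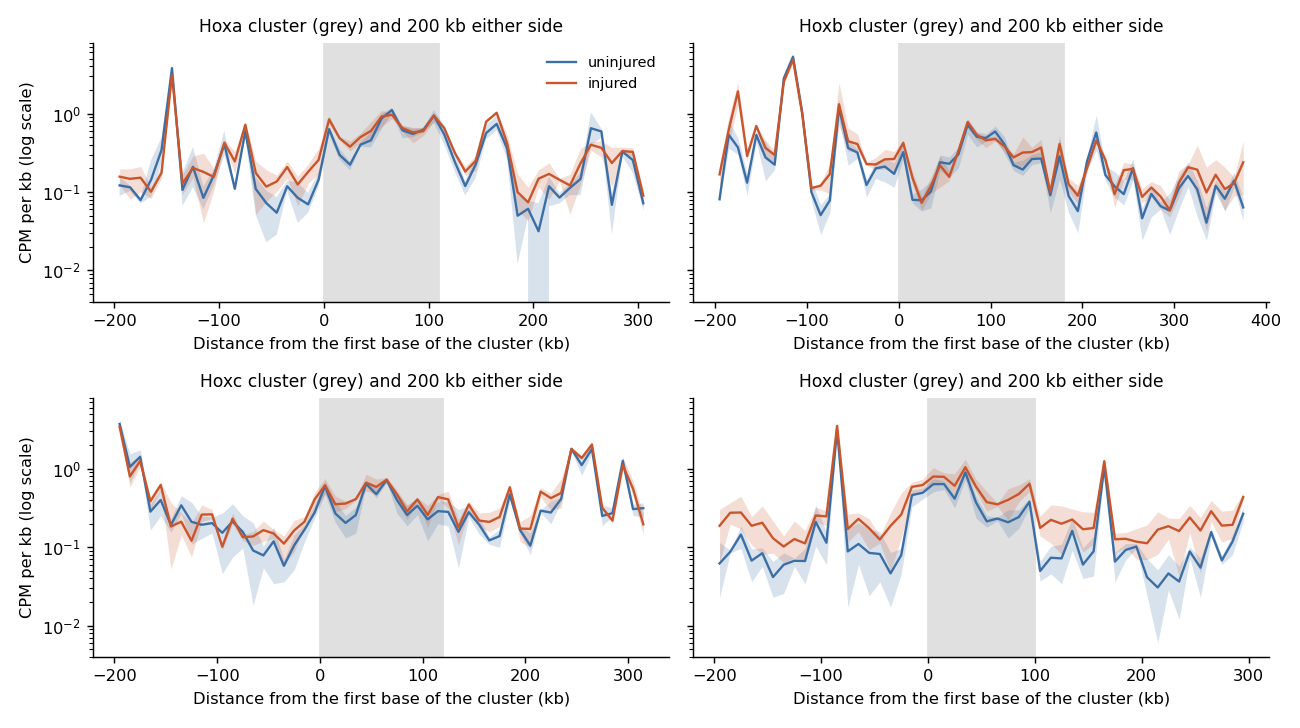
Accessibility (CPM per kb, log scale) in 10 kb bins by distance from the first base of each cluster, whose extent is grey. Lines are group means and bands run from the lowest to the highest of 3 libraries, reaching the bottom of the axis where a library had 0 cut sites. Bins inside the clusters stay near or under 1 CPM per kb, with peaks of 3.31 to 5.09 outside.

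Fragment length gave a readout that the choice of genes had not used. Fragments under 100 bp come mostly from DNA free of nucleosomes. In the clusters they made up 31.6%, 35.8% and 33.3% of fragments before injury and 26.5%, 29.9% and 35.8% after, from 1543 to 4400 fragments per library. The difference of -2.81 percentage points was within the spread (exact permutation p = 0.4), and it was -2.69 over barcodes with 20% of cut sites in open tiles. Over all fragments the shares were 35.2%, 39% and 36.8% before and 31.4%, 33.5% and 38.8% after, higher than in the Hox clusters in 6 of 6 libraries. In open Hox tiles the shares were 37.2%, 39.8%, 38.6% and then 31.0%, 36.1% and 40.3%. Open tiles of the genome had 37.5%, 40.7%, 39.5% and then 34.8%, 38.4% and 41.2%, above the Hox value in each library. In other Hox tiles they were 21.6%, 28.1%, 23.9% and then 19.2%, 21.8% and 27.5%.

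**Figure D5:**
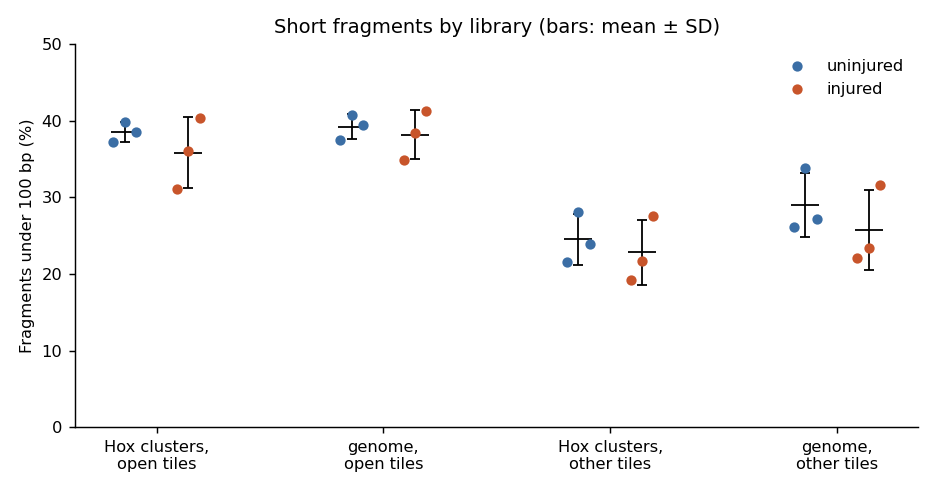
Share of fragments under 100 bp in open and other tiles of the Hox clusters and of the genome, by library, with bars for the mean and SD of 3. Open tiles of the Hox clusters held 31.0% to 40.3% short fragments and other Hox tiles 19.2% to 28.1%.

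Matches to 2 motifs were counted on both strands. A core contained in many CTCF sites (CC, any 3 bases, AGG, any base, GGC) was found in 25 of 987 Hox tiles (2.53%), against 1.15% of covered tiles of the genome. Of these 25 tiles, 11 (44.0%) were open, against 32.4% of all tiles with a match. In promoter windows the core was found at Hoxa11, Hoxb5, Hoxb7 and Hoxc13, 4 of 39 (10.3%), against 14.7% of all windows. The AP-1 motif TGANTCA was found in 85 Hox tiles (8.61%), against 14.6% of covered tiles, and in 8 Hox promoter windows (20.5%), against 37.3% of all. The median GC content was 48.6% in Hox tiles and 41.8% in all tiles. Motif shares were not compared at like GC content, so the part of base composition in them was not tested. The matches to the CTCF core in the 3 open Hox tiles with the highest level are shown with 6 bases on each side, the core in capitals, from GRCm38, plus strand.
Hoxc13 coding exon, chr15:102921469-102921492: cccagcCCCGGAGGCGGCgcgcca
Hoxd3 and Hoxd4 intron, chr2:74715915-74715938: ctttgtCCAGGAGGAGGCgctgta
Hoxb5 noncoding exon, chr11:96303239-96303262: caatcgCCGGGAGGTGGCgcgctc
Their tiles had mean levels of 0.758, 0.674 and 0.522 CPM. They ranked 45, 52 and 72 among the 987 Hox tiles by level. Each label names gene parts that the whole 500 bp tile overlaps, and not always the match itself. The match labelled Hoxb5 lies upstream of the 5′-most Hoxb5 start (chr11:96303336, plus strand), outside the exon.

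Partners and regulators of Hox genes were read from fixed lists in the same libraries, at the 5′-most start of each gene only. All 10 Hox cofactors of the MEIS, PBX, PKNOX and TGIF families lay above the median of all promoters, with a median of 25.7 CPM, and 0 were called (edgeR). Their median log2 change was -0.02. Of 32 Polycomb genes 28 lay above that median, and the lowest, Cbx7, had 0.158 CPM. Among the 31 tested, 3 were lower after injury by edgeR with Benjamini-Hochberg adjustment, where 2.35% of all promoters were. Of the 31, 0 were higher, where 2.18% of all were, and the list's median log2 change was -0.20. The list was not compared with promoters of its own level. Nor was it read under the other scalings, which called 38.5% to 58.2% of all promoters lower. Phf1, a PRC2 accessory protein, had 30.2, 31.1 and 29.1 before and 21.5, 22.1 and 22.2 after (-0.46, edgeR adjusted p = 0.00899). Yaf2, a subunit of variant PRC1, had a log2 change of -0.34 (edgeR adjusted p = 0.049). The enzyme Ezh2 and its partners Eed and Suz12 had log2 changes of -0.20, -0.20 and -0.17 and were not called. These 3 are named for their role, with their values known. Rbbp4 had the highest level of the list, with a mean of 42.9 CPM.

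Of 11 Trithorax and H3K27 demethylase genes tested, which oppose Polycomb, 0 were called. Their median log2 change was -0.17, near the -0.20 of the Polycomb list. Of the 12 in the list 10 lay above the median of all promoters, with Kmt2b the highest at 55.9 CPM. The windows at the 5′-most starts of Ash2l and Dpy30 were low at 0.260 and 0.312 CPM, and other starts of these genes were not read. Retinoic acid is a known inducer of Hox genes, and of 5 retinoid receptor genes tested 0 were called, with a median log2 change of -0.22. Of the 6 in the list 3 lay above the median of all promoters, with Rxrb the highest at a mean of 29.9 CPM, while Rxrg, Rara and Rarb had 3.36, 2.48 and 0.258 CPM. A set of 8 other homeobox genes, the ParaHox genes and those linked to the clusters, behaved in level like the Hox genes: 0 of 8 lay above the median of all promoters, with a median of 1.31 CPM. Gsx1 was highest at 4.24 CPM and 0 were called. The median log2 change of the list was 0.51, beside 0.33 for promoters in the range of Hox levels. Its summed level was 9.35 to 12.4 CPM before and 14.2 to 16.2 after. The smallest adjusted p in the list was that of Cdx2, an intestinal factor that acts on Hox genes, at 0.664, 0.256 and 0.345 CPM before and 1.78, 1.68 and 1.04 after (log2 change 1.90 with a standard error of 0.52, edgeR adjusted p = 0.0518, named after its values were seen).

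Markers of other cells of the epithelium were read over the same windows, where over all promoters 2.18% were called higher and 2.35% lower. Of 8 HBC markers 5 lay above the median of all promoters, and 1, Icam1, was called lower (edgeR adjusted p = 0.0176). Of 6 sustentacular markers 2 were lower, Ermn and Muc2, and the summed level of the list was 14.8 to 28.5 CPM before and 7.88 to 9.95 after. Of 9 immune markers tested 1, Csf1r, was higher, with summed levels of 13.8 to 25.1 before and 13.6 to 18.5 after. Most of that sum came from Cd74, at 23, 16 and 10.9 CPM before and 11.2, 10.1 and 6.87 after (not called). A sum without Cd74, taken after the data were seen, was 2.05, 3.48 and 2.93 before and 6.78, 8.34 and 6.70 after, and 9 of these 9 markers had a higher mean after injury. Of 5 Bowman gland markers 1, Muc5ac, was higher. Among markers of sensory neurons, precursors, fibroblasts, endothelium and airway 0 were called. The endothelial sum was 7.90 to 9.80 CPM before and 13.5 to 14.9 after, and the sensory neuron sum 31.2 to 42.6 before and 28.6 to 68.7 after. The immune and endothelial lists had median levels of 0.484 and 0.870 CPM. Promoters in the range of Hox levels had a median log2 change of 0.33. Neither sum was compared with promoters of like level or under other scalings, and a difference in cell numbers was not tested. Barcodes with 2 or more fragments at immune markers had 185.5 to 285.9 Hox fragments per 1000000 and the rest 191.3 to 242.9. Within a library these barcodes had the higher rate in 5 of 6, the exception being injured replicate 1 (185.5 against 197.9). The cut of 2 fragments took no account of depth, and such barcodes were deeper on average than the rest in every library. In uninjured replicate 2, 73 of them held 4780364 fragments and the other 816 barcodes held 11627885. Deep barcodes and immune cells are thus not told apart by it, and the part of immune cells in the Hox levels was not tested. Leaving these barcodes out left 0 Hox promoters and 0 Hox tiles called.

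Most cells contributed few Hox fragments. The median barcode had 1 to 4 fragments in the 4 clusters, and 13.5% to 33.0% of barcodes per library had none. Hox fragments made up 208.2, 203.5 and 248.5 per 1000000 in uninjured and 196.1, 231 and 225.5 per 1000000 in injured libraries. Barcodes with at least 8 Hox fragments and 4 times the rate of their library numbered 19 of 4476. In uninjured replicates 1 to 3 there were 3, as 1 of 454, 1 of 889 and 1 of 629 barcodes. In injured ones there were 16, as 11 of 1338, 2 of 420 and 3 of 746. The 19 held 2.30% of all Hox fragments. In 10 of the 19, over 75% of the Hox fragments lay in a single cluster. Fragments of 1 barcode are not independent observations, and no test was made of these counts.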

How the data were processed

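Fragment files were deposited for 6 single-cell ATAC-seq libraries, made with Cell Ranger 2.0.0 on mm10 per the submitters' processing notes. Each line holds a fragment, its barcode and a read count per the deposited files. The deposited peak count matrices were not used here. Whether fragment ends were shifted for the transposase is not given in the sources used here. Cut sites were counted over barcodes with 2000 or more fragments in windows of 1000 bp either side of each 5′-most start and in 500 bp tiles, and summed per library, the unit of replication. Doublets were not called. An alternative left out barcodes over 3 times the median number of fragments. Counts were tested with edgeR 4.0.16 (quasi-likelihood, TMM factors from promoters, Benjamini-Hochberg threshold 0.05) in R 4.3.3, with DESeq2 1.42.0 as an alternative, and checked on simulated data. Standard errors beside edgeR log2 changes are approximate: the size of the change over the square root of the F statistic. For 7 single values, whole-cluster sums among them, the permutation test was exact and two-sided. The labels describe each epithelium as processed individually, and p-values measure the spread between these samples. Depth was 14825320 to 44875242 cut sites per library, and fragments are not wholly independent.

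Replicate numbers are shared by the groups, with the same ages. Deviations of same-numbered libraries from their group means correlated at 0.11, 0.24 and 0.29, each over 0.1, so by that rule the numbers were taken to pair the samples. The main edgeR fits and the permutation tests between groups did not use these pairs. The replicate block and the sign flips over pairs are given beside them. A mismatched pair, uninjured 2 with injured 1, had 0.15, above the lowest matched value. Promoters named were the 3 with the highest mean in each cluster and the lowest of all 39, with exceptions stated. Some items that this rule names are not reported here. Members and lists were chosen with earlier results of these data known. Alternatives were other scalings, windows, tile sizes, filters, the replicate block and leaving out each library.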

Additional observations from a re-analysis of the deposited data

How the results depend on the processing

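The count of 0 Hox promoters and 0 Hox tiles called was the same with DESeq2 and with other windows and tile sizes. It also stayed at 0 under each barcode filter, without each library in turn and, for promoters, without a count filter. For tiles, a looser count filter, with 408 Hox tiles tested, gave 0 as well. Only the scaling moved the count. Scaling by total cut sites, by 10 kb bins and by closed tiles gave 1 Hox promoter lower each (Hoxa7), where 38.5%, 58.2% and 51.9% of all promoters were lower, and the last 2 gave 2 and 1 Hox tiles lower, where 5.44% and 2.05% of all tiles were. The direction of whole-cluster changes (log2, injured over uninjured) also depended on it. By total cut sites they were -0.018 for the 4 clusters, -0.10 for Hoxa, -0.15 for Hoxb and -0.029 for Hoxc. By 10 kb bins they were -0.29, -0.35, -0.41 and -0.30, and -0.038 for Hoxd. By closed tiles they were -0.56, -0.61, -0.69 and -0.58, and -0.34 for Hoxd. The cause was not tested.

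Leaving out each library gave 0.18 to 0.34 for the 4 clusters, 0.09 to 0.24 for Hoxa, 0.02 to 0.23 for Hoxb, 0.12 to 0.30 for Hoxc and 0.32 to 0.65 for Hoxd, with -0.77 to -0.46 relative to closed tiles and -5.34 to -0.69 percentage points for short fragments. With the replicate block, 0 Hox promoters and 0 Hox tiles were called, while calls over all promoters went from 379 higher and 408 lower to 753 and 1313, and the Hoxd change was 0.50. The block changed no Hox call. Of 245 values of the named promoters under alternatives 39 had the other sign. Depth limits the lowest windows, which held as few as 2 cut sites.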
